A study of Rattus norvegicus with 48 samples.

Results

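Serum and ulna bone of rats given parathyroid hormone (PTH) were compared miRNA by miRNA in 18 of the 48 small RNA libraries of the study, all those labelled with PTH treatment: 10 of serum (5 WT, 5 ZDF) and 8 of ulna bone (4 WT, 4 ZDF). The comparison asks which miRNAs were found mainly in the circulation and which mainly in the bone of the same treatment group. ZDF rats are Zucker diabetic fatty (fa/fa) rats, a model of type 2 diabetes with a defective leptin receptor, and the rats called WT are their Zucker lean counterparts. All were young adult males on a high-fat, high-carbohydrate chow, all had a surgical defect in the femur, and all received PTH under the skin for the 12 weeks before serum and ulna were taken.

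Ulnae and sera were taken from the same animals, apart from 2 of the 4 ZDF bones. No label links a bone to its serum, so libraries were treated as independent, and p-values measure the spread between these libraries. Sera were extracted as a fixed small volume and bones were ground and lysed before extraction, so tissue and extraction cannot be told apart. In bulk samples, fewer cells of a type and less RNA per cell cannot be told apart either. A level is given as CPM, the count of a miRNA scaled to the miRNA reads of its library with TMM factors, and a fold change as log2 of serum over bone, positive when higher in serum.

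MiRNAs are short RNAs that guide Argonaute proteins to messenger RNAs, mainly by pairing of the seed near their 5′ end, and lower the output of those messages. Many are made mostly by 1 cell type, and serum carries miRNAs from blood cells, liver, vessels and other organs in vesicles and protein complexes, which makes them candidate blood markers of tissue state. PTH given intermittently is a bone anabolic drug that acts on osteoblasts and osteocytes, and miRNAs of the mesenchymal lineage are known to tune osteoblast differentiation.

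Printed are sequences of abundant miRNAs with large differences between the tissues and of the seed families and the hairpin described below, so that shared seeds can be seen beside the direction of the difference. They are a selection. All are mature rat sequences from RefSeq (build GRCr8), in which 180 of the 215 tested miRNAs were found by name. The seed, bases 2 to 8, is in capitals.

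Higher in bone, with the seed of the muscle miRNAs:
miR-1b: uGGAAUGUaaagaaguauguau
miR-206-3p: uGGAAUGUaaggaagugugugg
Higher in bone, with the let-7 seed:
let-7a-5p: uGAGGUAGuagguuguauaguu
let-7c-5p: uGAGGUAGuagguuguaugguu
let-7e-5p: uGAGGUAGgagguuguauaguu
Higher in bone, other seeds (the 199a pair being both arms of 1 hairpin):
miR-196b-5p: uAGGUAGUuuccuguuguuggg
miR-199a-5p: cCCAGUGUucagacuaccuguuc
miR-199a-3p: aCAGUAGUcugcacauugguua
miR-125b-5p: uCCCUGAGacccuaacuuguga
miR-26a-5p: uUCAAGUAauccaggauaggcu
Higher in serum, with the seeds of the miR-17-92 and miR-106b-25 clusters:
miR-17-5p: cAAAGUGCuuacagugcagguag
miR-20a-5p: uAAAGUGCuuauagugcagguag
miR-92a-3p: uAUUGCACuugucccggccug
miR-25-3p: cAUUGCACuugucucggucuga
Higher in serum, other seeds:
miR-192-5p: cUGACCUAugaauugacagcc
miR-375-3p: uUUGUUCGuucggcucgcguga
miR-130b-3p: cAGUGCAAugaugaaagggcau
miR-484: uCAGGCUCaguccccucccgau
miR-423-5p: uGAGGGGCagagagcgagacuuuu
miR-191a-5p: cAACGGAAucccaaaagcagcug
miR-425-3p: aUCGGGAAuaucguguccgcc
Same seed in all 3, with miR-16-5p higher in serum and the other two higher in bone:
miR-16-5p: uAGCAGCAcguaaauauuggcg
miR-195-5p: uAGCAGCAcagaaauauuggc
miR-497-5p: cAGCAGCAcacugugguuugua
Both arms of 1 hairpin, the 5p arm higher in serum and the 3p arm higher in bone:
miR-142-5p: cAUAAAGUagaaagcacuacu
miR-142-3p: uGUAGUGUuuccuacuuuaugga

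The 10 sera held 53249 to 153860 reads on miRNAs (median 84217) and the 8 bones 41627 to 971036 (median 228250.5), so levels in the shallowest bones, WT replicates 1 and 2, were the least precise. Spearman correlations of CPM between libraries were 0.768 to 0.974 among sera, 0.843 to 0.979 among bones and 0.352 to 0.696 between a serum and a bone, a description over miRNAs that share libraries. MiRNA reads were 0.837 to 4.09% of all reads of a serum library and 1.58 to 12.6% of a bone library. Serum averaged 1.65 ± 1.01% (SD over 10 libraries) and bone 6.83 ± 3.86% (SD over 8) (exact permutation test within genotype, two-sided, p = 0.000504, adjusted over 4 whole-library measures p = 0.00202, smallest p possible 6.30e-05). Within WT rats alone the difference was -2.38 percentage points (exact permutation test, p = 0.151), and within ZDF rats alone -7.97 percentage points (p = 0.00794, exact). At an equal depth of 41627 reads, 274 miRNAs were detected in serum and 282 in bone on average (exact permutation p = 0.325), and the share of the 10 highest miRNAs was 59.6% in serum and 57.0% in bone (exact permutation p = 0.428). The effective number of miRNAs, the exponential of the Shannon entropy, was 37.2 in serum and 41.1 in bone (exact permutation p = 0.334).

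A pair of sera stood apart from the rest. WT serum replicate 3 and ZDF serum replicate 1 held 2.16 and 1.79% of their reads on mesenchymal and osteoblast miRNAs, against 0.229 to 1.19% in the other 8 sera. They also held 4.77 and 2.75% on striated muscle miRNAs, against 0.0225 to 1.68% in the others. Without both, 180 of 217 miRNAs differed, 93 higher in serum and 87 higher in bone, and 161 of the 173 calls below that were still tested remained, all in the same direction. Without WT bones 1 and 2, 184 of 236 differed and 165 of the 175 calls remained, also in the same direction. The 3 extraction controls added to the sera gave 51220 to 1008421 reads there and 2 to 65 in a bone library, 0.0033% of the total.

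Of 763 listed miRNAs, 215 passed the filter on low counts and 175 of them (81.4%) differed between serum and bone (edgeR quasi-likelihood test with genotype as a block, Benjamini-Hochberg adjusted p under 0.05). The difference was toward serum for 78 (36.3%) and toward bone for 97 (45.1%). In 102 (47.4%) no serum library overlapped any bone library in level, 48 (22.3%) of them higher in serum and 54 (25.1%) higher in bone. The filter was passed in both tissues by 137, and 103 of these differed. The other 78 passed through 1 tissue alone, so a difference is built into their selection. The median log2 fold change over all 215 was -0.36 with TMM, -0.21 with library totals and -0.09 with the RLE size factors, and it was 0.14 over the 216 tested without ZDF serum replicate 1 and 0.24 over the 217 tested without WT bone replicate 3. The direction of differences smaller than these shifts therefore depends on the scaling and on single libraries.

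**Figure D1:**
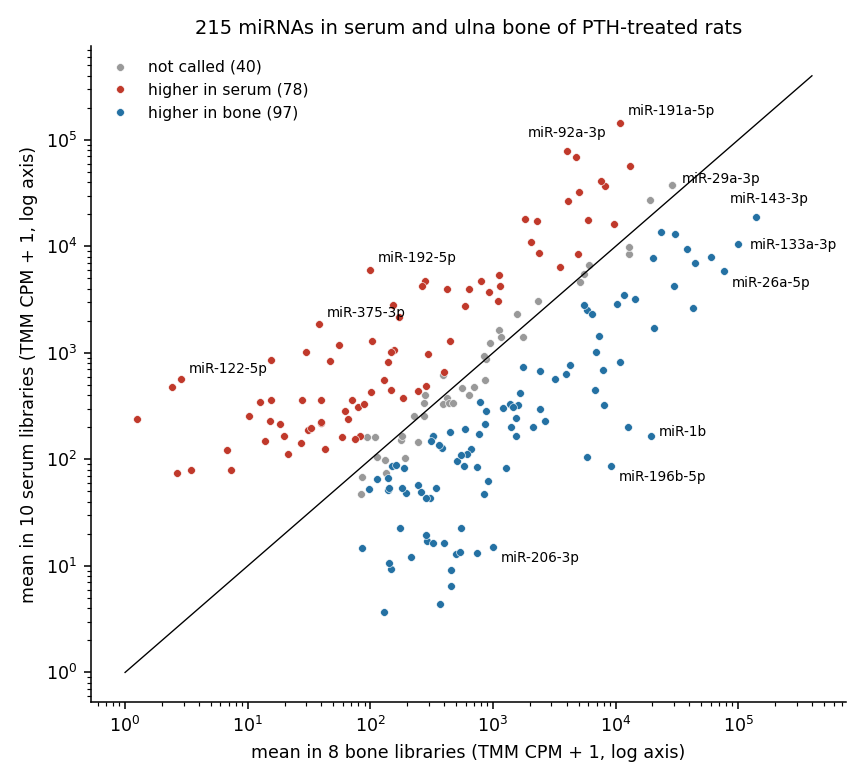
Mean level of each of the 215 tested miRNAs in the 10 serum libraries (y axis) and the 8 bone libraries (x axis), as TMM CPM plus 1 on log axes, with the line of equal levels. Red points (78) were higher in serum, blue points (97) higher in bone and grey points (40) did not pass the test. The points fill a broad cloud on both sides of the line, with miR-191a-5p at the top and miR-143-3p at the right.

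Among the most abundant miRNAs the tissues had little in common. The 10 highest of serum made up 58.5% of serum CPM and the 10 highest of bone 55.0% of bone CPM, and miR-29a-3p alone was in both sets. Serum was led by miR-191a-5p, a widely expressed miRNA whose hairpin sits with that of miR-425 within the span of Dalrd3, at 143613 ± 96646 CPM (SD, n = 10) against 10889.9 ± 2392 CPM in bone (SD, n = 8). It was followed by miR-92a-3p, the erythroid miR-486, and miR-16-5p. Bone was led by miR-143-3p, known from smooth muscle and fibroblasts, at 141204 ± 104767 CPM against 19079.7 ± 19456 CPM in serum. It was followed by the muscle miRNA miR-133a-3p and by miR-26a-5p, which has been studied in osteoblast differentiation.

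The 12 abundant miRNAs per direction described next were chosen for no overlap between serum and bone libraries. Their separation is therefore a condition of their choice. Of these, miR-1b, miR-196b-5p, miR-206-3p, miR-1-3p, let-7e-5p and miR-130b-3p passed the filter through 1 tissue alone, so a difference is built into their selection. The miRNA furthest toward bone among abundant ones was miR-1b, near-identical to miR-1-3p and with it the best known miRNA of heart and skeletal muscle. Its levels were 4041 to 53859 CPM (median 10233) in bone and 0 to 734 CPM (median 53.5) in serum, a log2 fold change of -6.99 ± 0.82 (SE, adjusted p = 1.89e-08). No serum reached the lowest bone, and the ZDF serum with the most, replicate 1, held 734 CPM. Reads can pass between miR-1b and miR-1-3p in mapping, so the split between them is uncertain, and miR-1-3p differed by -5.84 ± 0.75.

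Next came miR-196b-5p, a miRNA encoded among the HOX genes (here chr4:82661149-82661170, minus strand). It was at 1979.9 to 14739 CPM (median 10102) in bone and 25.2 to 184 CPM (median 88.5) in serum. Every bone library lay above every serum, by a log2 fold change of -6.73 ± 0.43 (SE, adjusted p = 3.99e-13). The related miR-196a and miR-196c differ from it by few bases and their reads may be mixed.

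It was followed by miR-206-3p, which is made in skeletal muscle and lies at chr9:30590747-30590768. It ranged over 216 to 3498 CPM (median 675) in bone and 0 to 107 CPM (median 0) in serum, a log2 fold change of -6.28 ± 0.67 (SE, adjusted p = 4.33e-09). Every bone lay above every serum. Of 10 sera, 4 held a read of it, and 1 of these, ZDF replicate 1, held 8 of the 11 reads found.

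Both arms of miR-199a, an RNA of mesenchymal cells whose hairpin lies within the span of Dnm3, were high in bone. The 5p arm was at 6649 to 19848 CPM (median 12972) in bone and 76.8 to 387 CPM (median 145) in serum, a log2 fold change of -5.91 ± 0.38 (SE, adjusted p = 3.99e-13). The 3p arm ranged over 2239 to 13890.0 CPM (median 7335) in bone and 43.4 to 787 CPM (median 268) in serum and differed by -4.68 ± 0.52 (SE, adjusted p = 7.41e-09). Neither arm overlapped between the tissues.

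MiR-99a-5p and miR-125b-5p are widely used in mesenchymal and muscle cells. MiR-99a-5p was at 32325 to 64580.3 CPM (median 41425) in bone and 782 to 6983 CPM (median 1558) in serum, a log2 fold change of -4.04 ± 0.44. MiR-125b-5p was at 7598 to 16517 CPM (median 10049) in bone and 119.5 to 2041 CPM (median 613) in serum and differed by -3.79 ± 0.46. The highest serum was WT replicate 3 for both, and it was still below the lowest bone.

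The other members of this set were let-7e-5p, let-7c-5p, let-7a-5p and miR-26a-5p. MiR-26a-5p had the narrowest spread among sera of these 12, at 32482 to 108262 CPM (median 74550.2) in bone and 3543 to 8755 CPM (median 5556) in serum, a log2 fold change of -3.69 ± 0.30 (SE, adjusted p = 3e-11). The 3 let-7 miRNAs differed by -3.95, -3.92 and -3.62.

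Toward serum, the largest difference among abundant miRNAs was that of miR-192-5p, a miRNA of gut, liver and kidney epithelium. Its levels were 537 to 12336 CPM (median 5992) in serum and 26.8 to 278 CPM (median 89.1) in bone, a log2 fold change of 6.10 ± 0.58 (SE, adjusted p = 6.61e-10). The serum with the least, WT replicate 3 at 537 CPM, was still above the highest bone, WT replicate 2 at 278 CPM.

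MiR-375-3p, the best known miRNA of pancreatic islets and also made in gut epithelium, was at 368 to 4881 CPM (median 1152) in serum and 11.7 to 61.9 CPM (median 33.9) in bone. Its log2 fold change was 5.62 ± 0.52 (SE, adjusted p = 4.23e-10). The lowest serum lay well above the highest bone. MiR-7a-1-3p, the other tested member of the pancreatic list, was also higher in serum at 2.49 ± 0.38. The other arm, miR-7a-5p, did not pass the filter and was at 21.5 to 216 CPM (median 59.1) in bone and 0 to 76.7 CPM (median 10.1) in serum. Of the 4 listed miRNAs of gut, liver and kidney only miR-192-5p was tested.

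MiR-130b-3p was at 160.2 to 3039 CPM (median 1051) in serum and 0 to 64.3 CPM (median 27.5) in bone, a log2 fold change of 4.87 ± 0.51. MiR-484, widely expressed, was at 384 to 1875 CPM (median 1341) in serum and 23.4 to 93.7 CPM (median 50) in bone and differed by 4.38 ± 0.44. MiR-423-5p, within the span of Nsrp1, was at 2334 to 6257 CPM (median 4761) in serum and 61.9 to 542 CPM (median 224) in bone and differed by 4.04 ± 0.40. In none of these did the lowest serum reach down to the highest bone.

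MiR-142-5p, of leukocytes and other haematopoietic cells, was at 1068 to 9988 CPM (median 4324) in serum and 58.4 to 835 CPM (median 199) in bone, a log2 fold change of 4.35 ± 0.49 (SE, adjusted p = 9.94e-09). MiR-486 was at 19754 to 152709 CPM (median 60474) in serum and 1699.8 to 12003 CPM (median 3528) in bone and differed by 3.86 ± 0.46 (SE, adjusted p = 2.35e-08). MiR-191a-5p and miR-425-3p, from the pair of hairpins noted above, differed by 3.72 ± 0.40 and 3.54 ± 0.39, and their neighbours miR-191a-3p and miR-425-5p were also higher in serum. MiR-92a-3p, miR-17-5p and miR-20a-5p, the other members of this set, differed by 4.36, 4.14 and 3.64 and belong to the list of the miR-17-92 cluster described below. MiR-92a-3p and miR-17-5p each match 2 loci, so their reads cannot be assigned to that cluster alone.

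**Figure D2:**
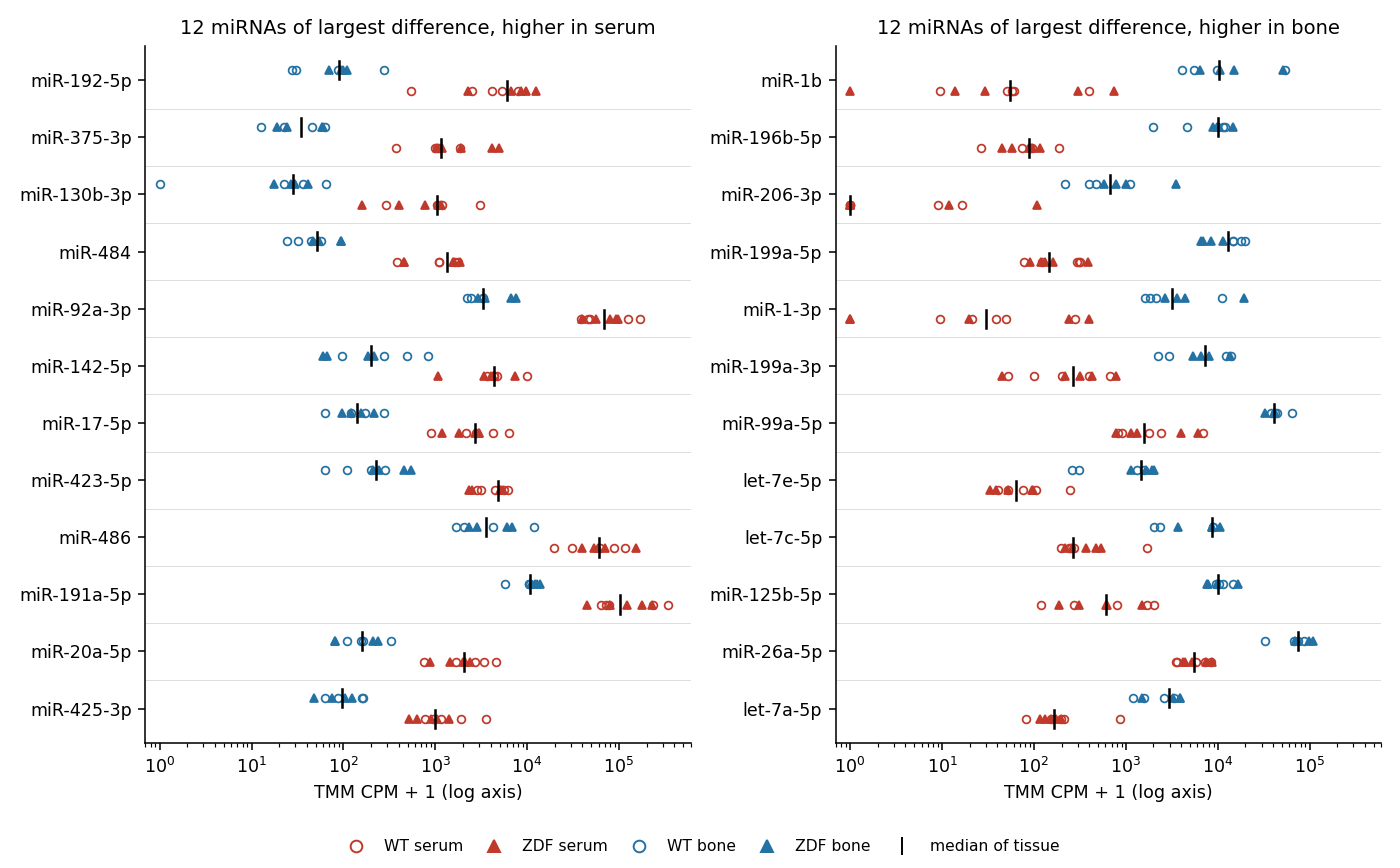
Level of the 12 miRNAs of largest difference in each direction in each library, as TMM CPM plus 1 on a log axis, with 10 serum libraries in red and 8 bone libraries in blue, open circles for WT, filled triangles for ZDF and a bar at each tissue's median. Serum and bone points do not overlap in any of the 24, which is a condition of their choice.

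Reads on miRNAs summed to 902373 in the sera and 2373444 in the bones. At equal level a miRNA therefore falls to 3 reads sooner in serum, and the counts that follow do not compare the tissues. Among miRNAs found in 1 tissue almost alone, 104 had at most 3 reads over all sera and more in bone, and 32 had at most 3 reads over all bones and more in serum. In bone these were led by miR-190a-5p, with 758 reads against 3 in serum, and by miR-136-5p, miR-539-5p and miR-541-5p of the imprinted Dlk1-Dio3 locus with 274, 216 and 118 reads against 2, 0 and 1. MiR-539-5p was therefore at least 27.4-fold higher in bone and miR-497-3p, with 106 reads against 0, at least 13.4-fold, against a floor of 3 reads over the group. In serum they were led by miR-122-3p (229 reads against 2) and miR-192-3p (57 against 2). MiR-208a-3p, encoded in a cardiac myosin gene, had 22 serum reads, and miR-200b-5p, of epithelium, had 21, with 0 in bone, at least 19.3-fold and 18.4-fold higher. These folds pool the reads of a tissue, and the floors cover counting error only. MiR-539-5p was at 274 and 193 CPM in ZDF bones 1 and 2 and at 0 in WT bones 1 and 2. MiR-208a-3p was at 75.7 and 97.0 CPM in WT sera 2 and 4 and at 0 to 15.3 CPM in the other sera.

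The lists of marker miRNAs divided the same way, read against 36.3% of all tested miRNAs higher in serum and 45.1% higher in bone. Of 15 tested miRNAs of the mesenchymal and osteoblast list, 9 passed the filter in both tissues. Of the 15, 11 were higher in bone, 2 higher in serum and 2 did not pass the test. Their median log2 fold change was -3.55 against -0.36 over all tested. Together they took 6.74 to 11.3% (median 9.31%) of the reads of a bone library and 0.229 to 2.16% (median 0.606%) of a serum library, without overlap. The 2 exceptions were miR-138-5p, at 2.06 ± 0.35, and miR-10a-3p, at 2.49 ± 0.48. MiR-214-3p, the neighbour of miR-199a, did not pass, at -0.66 (95% interval -1.51 to 0.20). Since these miRNAs are also made in muscle and vessels, the list does not mark osteoblasts alone.

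Of 16 listed miRNAs of striated muscle, 8 were tested. All 8 were higher in bone (median -4.30), and 2 of them passed the filter in both tissues. A listed member that was not tested, miR-208a-3p, went the other way, at 0 to 97.0 CPM in serum and 0 in every bone. They took 5.96 to 18.7% (median 11.1%) of bone reads and 0.0225 to 4.77% (median 0.816%) of serum reads, without overlap. The highest was miR-133a-3p, at 47909.7 to 189324 CPM (median 89629) in bone and 217 to 37752 CPM (median 8058) in serum, a log2 fold change of -3.18 ± 0.65 (SE, adjusted p = 6.37e-05). MiR-208b-3p and miR-499-5p, which are encoded in myosin genes, differed by -1.76 ± 0.57 and -1.41 ± 0.56. Bones of ZDF rats held 12.3 to 18.7% and those of WT rats 5.96 to 9.80%. The part that adhering or nearby muscle plays in the levels of bone libraries was not tested.

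Of the smooth muscle list, miR-143-3p, miR-143-5p and miR-145-3p were higher in bone and miR-145-5p did not pass (median of the 4 -2.56). Of the 4, 3 passed the filter in both tissues. MiR-143-3p was at 63575 to 353808 CPM (median 96845) in bone and 6838 to 72389.6 CPM (median 13828) in serum, a log2 fold change of -3.01 ± 0.48 (SE, adjusted p = 2.05e-06). The highest serum, ZDF replicate 1 at 72389.6 CPM, overlapped the lowest bone. MiR-145-5p differed by -0.12 (95% interval -0.86 to 0.63). The list took 22.13 and 28.0% of reads in WT bones 1 and 2, the shallowest libraries, and 7.41 to 10.7% in the other 6.

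Cartilage miRNAs were higher in bone in 3 of 4 tested cases (median -1.81). Of the 4, 2 passed the filter in both tissues. The summed share of the list went the other way, with overlap. It was 1.94 to 4.38% (median 2.83%) of serum reads and 1.43 to 2.99% (median 1.63%) of bone reads. For miR-455-3p, at -0.94, the call was lost with RLE size factors (-0.68) and without WT bone replicate 3 (-0.38), WT bone replicate 4, WT serum replicate 2 or ZDF serum replicate 2. It was also lost with library totals (-0.83), DESeq2 (-0.69), no filter beyond 1 read (-0.90) and placebo libraries in the fit (-0.81). MiR-140-5p, of chondrocytes, was at 503 to 2617 CPM (median 1363) in bone and 80.1 to 300.2 CPM (median 224) in serum, a log2 fold change of -2.74 ± 0.31 (SE, adjusted p = 1.29e-08), without overlap. The other arm, miR-140-3p, was the tenth most abundant miRNA of serum, at 16709 to 57196 CPM (median 23819) in serum and 12658 to 36380.1 CPM (median 16007) in bone, and did not pass at 0.53 ± 0.28 (SE, adjusted p = 0.0851). It passed with RLE size factors (0.84, adjusted p = 0.0113), without ZDF serum replicate 1 (adjusted p = 0.000952) and without WT bone replicate 3 (1.06). Leaving out ZDF serum replicate 2, WT serum replicate 2 or 4, or WT bone replicate 2 gave 0.67 to 0.81, also past the threshold.

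Several miRNAs known from bone turnover did not pass the test. MiR-29a-3p, miR-29b-3p and miR-29c-3p, which act on collagen messages, differed by 0.39 (95% interval -0.19 to 0.96), -0.36 (-1.16 to 0.44) and -0.36 (-1.02 to 0.30). MiR-29a-3p was at 23781 to 54172 CPM (median 36809) in serum and 14571 to 44586 CPM (median 28699) in bone. MiR-21-5p, active in osteoclasts and many other cells, was at 23002 to 47417 CPM (median 41774) in serum and 14230.3 to 38878 CPM (median 30619.5) in bone and differed by 0.40 (95% interval -0.12 to 0.92). With RLE size factors miR-29a-3p and miR-21-5p passed the test as higher in serum, at 0.67 and 0.69. They also passed without ZDF serum replicate 1, at 0.92 and 1.03, and without WT bone replicate 3, at 1.03 and 1.04. MiR-31a-5p, of osteoblasts and osteoclasts, differed by 0.59 (95% interval -0.22 to 1.39). It passed with RLE size factors (0.90) and with DESeq2 (0.91), as miR-29a-3p and miR-21-5p also did with DESeq2 (0.67 and 0.69). It passed without the same libraries, at 1.22 and 1.19.

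The endothelial list passed in 1 of 4 cases. MiR-126a-3p, of endothelium, was higher in bone at -2.18 ± 0.30 (SE, adjusted p = 2.89e-07), and miR-126a-5p from the same hairpin did not pass at 0.13 (95% interval -0.54 to 0.79).

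Of 7 leukocyte miRNAs, 4 were higher in serum and 1 in bone (median 1.91). Of the 7, 6 passed the filter in both tissues. MiR-223-3p, of myeloid cells, was at 6072 to 32294 CPM (median 17607) in serum and 1763 to 3511 CPM (median 2066) in bone, a log2 fold change of 2.91 ± 0.33 (SE, adjusted p = 1.29e-08), with no overlap. MiR-150-5p, of mature lymphocytes, differed by 1.91 ± 0.38 (SE, adjusted p = 3.74e-05) with overlapping libraries. The miRNA higher in bone was miR-142-3p, at -1.84 ± 0.38. The list took 1.56 to 4.77% (median 3.37%) of serum reads and 0.629 to 1.00% (median 0.704%) of bone reads.

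Of 4 tested erythroid miRNAs, 3 were higher in serum (median 2.72). MiR-451-5p, which is cut by AGO2 in place of Dicer, was at 6796 to 91586 CPM (median 30198) in serum and 2551 to 9673 CPM (median 4304) in bone, a log2 fold change of 2.66 ± 0.42 (SE, adjusted p = 1.71e-06). MiR-144-3p, from the neighbouring hairpin, differed by 2.77 ± 0.42, and miR-144-5p did not pass at -0.52 (95% interval -1.21 to 0.16). Together the erythroid miRNAs took 2.56 to 22.4% (median 10.7%) of serum reads and 0.728 to 1.36% (median 1.02%) of bone reads. A measure used for hemolysis, reads of miR-451-5p over those of miR-23a-3p on the log2 scale, ranged from -1.55 to 4.29 among sera (median 0.96) and from -1.48 to -0.18 among bones, and the part of red cell lysis in these levels was not tested.

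None of the 3 tested hepatocyte miRNAs and 1 of the 5 tested of the epithelial list passed the filter in both tissues, so a difference is built into the selection of the others. MiR-122-5p, the main miRNA of hepatocytes, was at 76.7 to 1468 CPM (median 419) in serum, with at most 3 reads in any bone library and none in 6 of 8. MiR-802-5p, of liver and pancreas, was at 0 to 934 CPM (median 438) in serum with at most 2 reads in a bone. The 3 tested hepatocyte miRNAs were all called higher in serum, but their fitted fold changes depend on the small constant that replaces 0. Of the epithelial list, miR-200a-3p, miR-141-3p and miR-429 were higher in serum, at 5.70 ± 0.73, 3.88 ± 0.47 and 4.61 ± 0.57. MiR-205, of squamous epithelium, was higher in bone, at -2.50 ± 0.36, and miR-203a-3p did not pass, at 0.59 (95% interval -0.08 to 1.26).

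Only 1 neuronal miRNA was tested, miR-9a-5p, which was higher in bone at -3.86 ± 0.56 from a low level of 95.3 to 656 CPM (median 203). It did not pass the filter in both tissues, so a difference is built into its selection. The brain miRNA miR-124-3p had 0 reads in every serum.

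**Figure D3:**
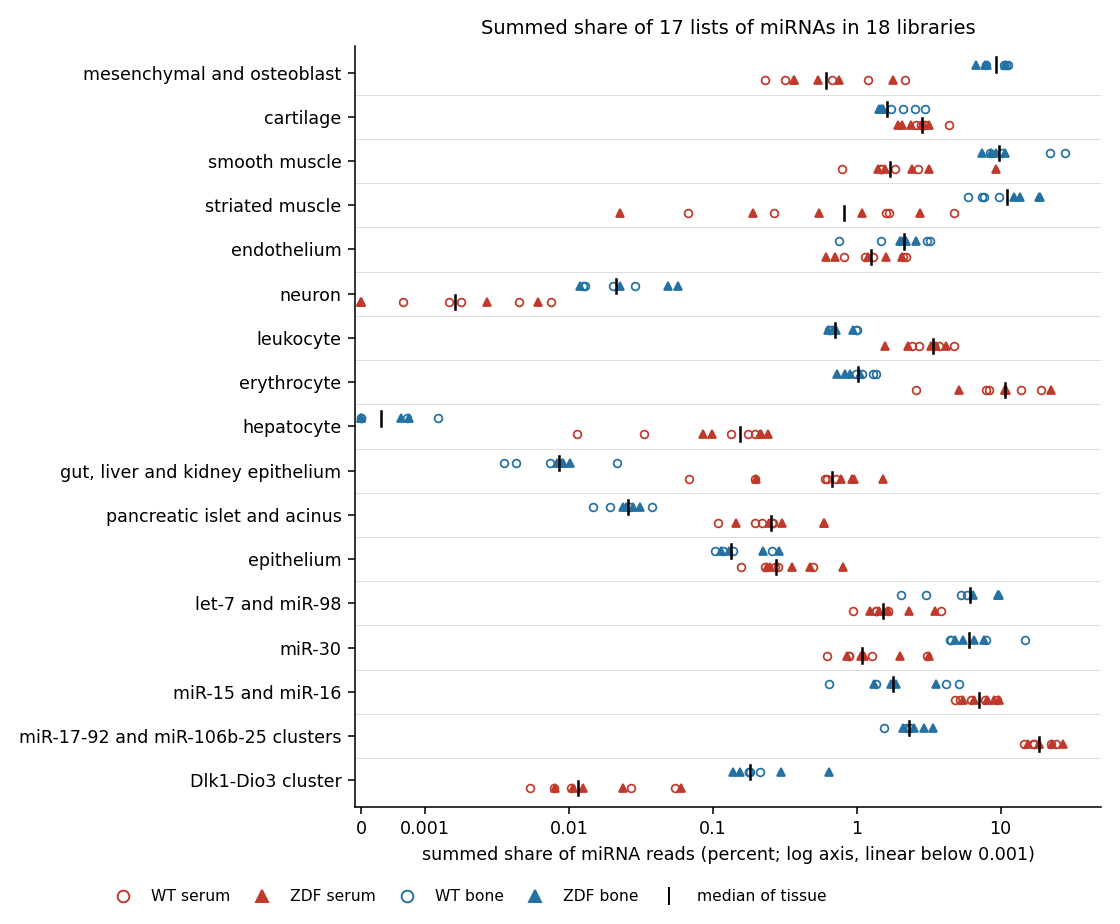
Summed share of miRNA reads (percent, log axis that is linear below 0.001) of 17 lists of miRNAs in each library, with 10 serum libraries in red and 8 bone libraries in blue, open circles for WT, filled triangles for ZDF and a bar at each tissue's median. Striated muscle and mesenchymal miRNAs lie higher in every bone, and erythrocyte, leukocyte, liver and miR-17-92 miRNAs lie higher in every serum. Cartilage, endothelium, epithelium, smooth muscle, let-7 and miR-15 and miR-16 shares overlap.

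Seeds were counted over the 180 of 215 tested miRNAs with a matched sequence, so miR-30b-5p and miR-30d-5p, among others, are left out. The seed of miR-30a-5p, miR-30c-5p and miR-30e-5p therefore counts as 1 direction, although miR-30b-5p of the miR-30 list was higher in serum. Of 27 seeds with 2 or more such members, 19 had at least 2 called members. In 16 of these the calls were in 1 direction, and 1 of the 16 is the pair let-7a-1-3p and let-7c-2-3p, which is 1 measurement. In the other 3 the calls were in both directions. Members of a seed family can share reads, so they are not independent. The let-7 and miR-98 list had 9 of 12 tested members higher in bone and 1 higher in serum (median -1.53). The 9 higher in bone include both let-7a-1-3p and let-7c-2-3p. Of the 12, 9 passed the filter in both tissues. Let-7e-5p was not among these, so a difference is built into its selection. The most abundant, let-7i-5p and let-7f-5p, differed by -0.98 ± 0.35 (SE, adjusted p = 0.0111) and -3.49 ± 0.38 (SE, adjusted p = 5.13e-09). For let-7i-5p the call was lost without WT serum 3 and ZDF serum 1 together (-0.48), without WT bone replicate 3 (-0.49), without ZDF serum replicate 1 (-0.32) or without ZDF serum replicate 2 (-0.67), and in WT rats alone the difference was 0.28. The member higher in serum was let-7d-3p, from the other arm of its hairpin, at 2.88 ± 0.48. The passenger arms let-7a-1-3p and let-7c-2-3p have the same sequence and identical counts.

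The clusters miR-17-92 and miR-106b-25, which promote proliferation of blood and other progenitor cells, went the other way. Of 13 tested members 11 were higher in serum and 1, miR-17-1-3p, was higher in bone (median 2.44). Of the 13, 10 passed the filter in both tissues, and for the others a difference is built into their selection. They took 14.5 to 27.4% (median 18.4%) of serum reads and 1.54 to 3.39% (median 2.32%) of bone reads. MiR-92a-3p was at 38749.5 to 168174 CPM (median 67822) in serum and 2231 to 7594 CPM (median 3326) in bone, a log2 fold change of 4.36 ± 0.40 (SE, adjusted p = 4.23e-10), and miR-25-3p, within the span of Mcm7, at 15906 to 118076 CPM (median 39095) in serum and 5299 to 11223 CPM (median 7378) in bone. The seed shown above as AAAGUGC had 5 of 5 tested members higher in serum and AUUGCAC 4 of 4, against 36.3% of all tested miRNAs. Of these members, miR-20b-5p and miR-92b-3p were low in bone, at means of 6.31 and 18.9 CPM against 79.0 and 165 CPM in serum.

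MiR-30 miRNAs, common in muscle, kidney and fat, were higher in bone in 7 of 8 tested cases (median -2.44) and miR-30b-5p was higher in serum, at 0.75 ± 0.34. Of the 8, 7 passed the filter in both tissues. The most abundant, miR-30a-5p, was at 25456 to 148552 CPM (median 50934) in bone and 3833 to 17684 CPM (median 5056) in serum and differed by -2.90 ± 0.40. For miR-30d-5p, at -0.96, the call was lost without ZDF serum replicate 1 (-0.52), ZDF serum replicate 2 (-0.68) or WT bone replicate 3 (-0.52). It was also lost with library totals (-0.71), with no filter beyond 1 read (-0.80) and without WT bones 1 and 2 (-0.73). Neither genotype alone gave the call (-0.66 in WT and -0.72 in ZDF rats).

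Of 8 tested miRNAs of the miR-15 and miR-16 list, which act on cell cycle messages, 4 were higher in serum and 3 in bone (median 1.22). The filter was passed in both tissues by 4 of the 8. MiR-15b-5p and miR-16-5p, within the span of Smc4 on chromosome 2 (chr2:155555197-155555364), were higher in serum, at 3.96 ± 0.42 and 2.11 ± 0.36. MiR-497-5p and miR-195-5p, which sit together on chromosome 10 (chr10:55450172-55450529), carry the same seed and were higher in bone, at -2.34 ± 0.40 and -3.90 ± 0.55. MiR-16-5p and miR-195-5p differ by few bases and may share reads.

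All 6 tested miRNAs of the imprinted Dlk1-Dio3 locus, out of 80 listed, were higher in bone (median -4.30) and none overlapped. MiR-127-3p was at 169.7 to 1084 CPM (median 331) in bone and 0 to 46.0 CPM (median 9.27) in serum, a log2 fold change of -5.38 ± 0.58 (SE, adjusted p = 5.13e-09). None of the 6 passed the filter in both tissues, so a difference is built into their selection. The locus took 0.137 to 0.642% (median 0.18%) of bone reads and 0.00532 to 0.0595% (median 0.0116%) of serum reads.

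Across the genome (GRCr8), clusters were counted over the 166 tested miRNAs matched to a single locus. This leaves out miR-17-5p and miR-92a-3p, among others. Hairpins less than 10000 bases apart formed 20 clusters, with calls in 1 direction in 15, in both directions in 3 and none in 2. Among matched sequences, the median GC content was 48.9% for the 62 higher in serum and 45.5% for the 80 higher in bone. Of those whose name gives an arm, the 5p arm made up 40.4% (23 5p and 34 3p) of the miRNAs higher in serum and 59.7% (46 and 31) of those higher in bone, against 49.7% (85 and 86) of all. U was the first base of 40.3% of the 62 and 56.3% of the 80, against 46.7% of all 180. These shares are descriptions, and families share sequence.

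The ratio of the 2 arms of a hairpin within a library does not depend on scaling between libraries. Of 22 hairpins with a mean of at least 20 reads on each arm, 13 (59.1%) had a ratio of 5p to 3p reads that differed between serum and bone (limma on the log2 ratio with genotype as a block, adjusted p under 0.05), 4 (18.2%) with more 5p in serum and 9 (40.9%) with more 5p in bone. The largest was miR-142, within the span of Tspoap1 (chr10:73055119-73055139 and chr10:73055155-73055177 for its arms). Its 5p arm took 86.4 to 97.1% in serum (median 91.6%) and 7.68 to 23.1% in bone (median 11.7%), a difference in log2 ratio of 6.37 ± 0.37 (SE, adjusted p = 1.26e-13). The dominant arm was thus 5p in every serum and 3p in every bone. In the 10 sera and 8 bones of placebo-treated rats, which were not in this fit, the share was 80.1 to 95.0% in serum and 8.81 to 21.3% in bone.

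MiR-126a, within the span of the endothelial gene Egfl7, had 54.4 to 74.1% in serum (median 68.5%) and 24.2 to 50% in bone (median 30.4%) of its reads on the 5p arm, a difference of 2.12 ± 0.29 (adjusted p = 9.96e-07). The placebo libraries gave 54.9 to 71.1% in serum and 19.7 to 28.8% in bone. MiR-423 went the same way, with 38.6 to 71.4% in serum (median 62.8%) and 11.1 to 46.8% in bone (median 31.0%), a difference of 1.77 ± 0.35. MiR-145 also had more 5p in serum, at 1.95 ± 0.45.

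In the other direction, the 5p arm of miR-144 took 5.27 to 18.8% in serum (median 12.4%) and 25.6 to 89.3% in bone (median 45.9%), a difference of -3.30 ± 0.42 (adjusted p = 2.79e-07), with no overlap. For miR-140 the 3p arm was the main one in both tissues, and the 5p share was 0.314 to 1.40% in serum (median 0.907%) and 3.25 to 13.4% in bone (median 5.59%), a difference of -3.23 ± 0.34. MiR-322 had 8.00 to 42.9% in serum (median 22.4%) and 42.0 to 90.5% in bone (median 66.2%), a difference of -2.86 ± 0.41, and miR-151 had 7.89 to 43.2% in serum (median 18.7%) and 32.6 to 81.2% in bone (median 51.4%), a difference of -2.56 ± 0.45. MiR-148a and miR-150 differed by -2.22 ± 0.37 and -2.17 ± 0.38. With a pseudocount of 5 in place of 0.5, miR-143, at -1.87 ± 0.55, was at 0.00553, the calls of miR-148a (-0.40) and miR-425 (-0.63) were lost, and 12 hairpins differed. The smaller difference of miR-199a, -1.14 ± 0.44, was lost without any 1 of 5 libraries, at values of -1.08 to -0.92: WT bone replicates 3 and 4, ZDF bone replicate 3, WT serum replicate 3 and ZDF serum replicate 3.

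**Figure D4:**
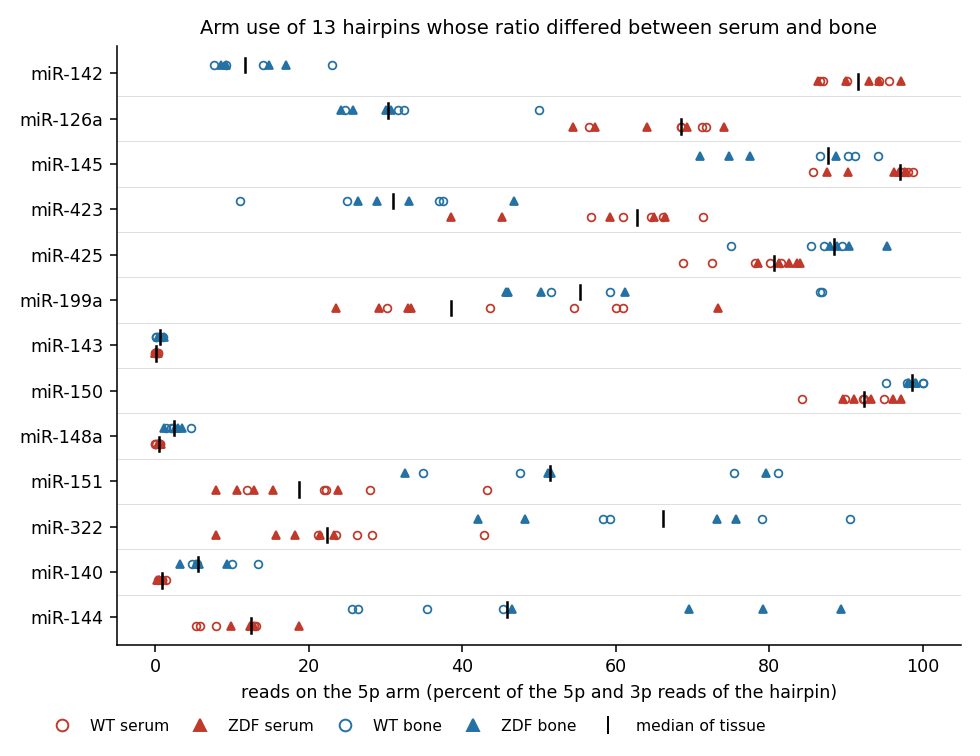
Percent of the reads of a hairpin that fall on its 5p arm in each library, for the 13 hairpins whose arm ratio differed between 10 serum (red) and 8 bone (blue) libraries, with open circles for WT, filled triangles for ZDF and a bar at each tissue's median. For miR-142 the sera lie between 86.4 and 97.1% and the bones between 7.68 and 23.1%.

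Serum minus bone was next compared between the genotypes under PTH. No miRNA of 215 (0.0%) had a tissue difference that differed between WT and ZDF rats (edgeR interaction term, lowest adjusted p = 0.482), with 6 at an unadjusted p under 0.05, and DESeq2 also called 0, with 5 at an unadjusted p under 0.05. The 95% interval of the interaction reached a median of 1.54 to either side on the log2 scale. Of the 215 intervals 1 lay within 1 and 79 lay within 2 in either direction, so smaller differences between the genotypes were not detectable for most miRNAs. Fitted apart, WT and ZDF fold changes had a Pearson r of 0.962 over 178 miRNAs, a description in which miRNAs are not independent, and 161 had the same sign.

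The lowest p was that of miR-143-3p (interaction 2.37, adjusted p = 0.482). Its level was 63575 to 353808 CPM in WT bones and 66544 to 113267 CPM in ZDF bones. The 2 highest WT bones were again replicates 1 and 2. Let-7i-5p was at 8445 to 15257 CPM in WT bones and 36976 to 62684 CPM in ZDF bones (interaction -1.51, adjusted p = 0.818). In sera it was at 5981 to 20641 CPM in WT and 7037 to 30453 CPM in ZDF rats. It was named for its low unadjusted p, and the share of miRNAs that separate WT from ZDF bones was not counted. MiR-1949, miR-30c-2-3p and miR-30e-5p had interactions of 3.77, 3.70 and 1.42, with adjusted p of 0.482, 0.818 and 0.818.

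The tissue difference under PTH was then set against that under placebo in 36 libraries. Of 243 miRNAs, 0 (0.0%) passed in the interaction of tissue with treatment (edgeR, lowest adjusted p = 0.717), with 15 at an unadjusted p under 0.05, and DESeq2 called 0, with 17 at an unadjusted p under 0.05. The 95% interval reached a median of 1.07 to either side and 35 intervals lay within 1 in either direction. Between the separate fits, which share no library, Pearson r was 0.974 and Spearman's rho 0.981 over 211 miRNAs, 207 with the same sign, and all 172 called under both had the same sign. The striated muscle list had a median of -4.30 under PTH and -4.48 under placebo, the mesenchymal and osteoblast list -3.55 and -3.12, the erythroid list 2.72 and 2.92, and the miR-17-92 and miR-106b-25 list 2.44 and 2.52.

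MiR-6216 and miR-532-5p had the lowest p of this interaction. MiR-6216 had an interaction of -3.29 (adjusted p = 0.717), with 0 to 4 reads in a bone library under PTH. MiR-532-5p had an interaction of -1.24 (adjusted p = 0.717), and the call of its difference under PTH (-1.21) was lost without ZDF serum replicate 1 (-0.60) or WT bone replicate 3 (-0.75). That call was also lost without WT bones 1 and 2 (-0.80), without WT serum 3 and ZDF serum 1 together (-0.60) and in WT rats alone (-0.81). MiR-148a-3p, miR-181a-1-3p and miR-328a-3p had interactions of -1.23, -1.43 and 1.68, each with an adjusted p of 0.717.

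**Figure D5:**
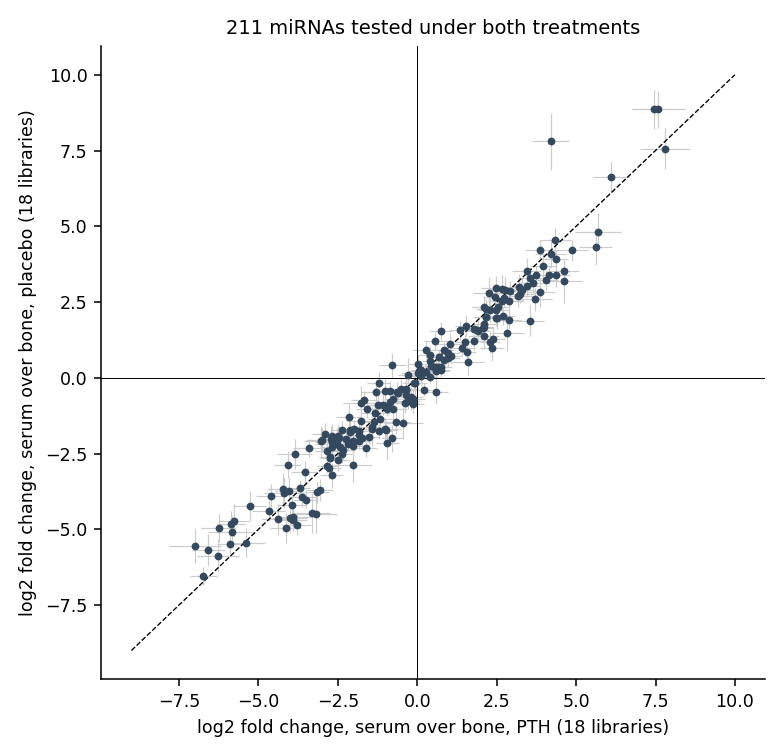
Log2 fold change of serum over bone under PTH (x axis) and under placebo (y axis) for 211 miRNAs tested in both, each from its own 18 libraries, with bars of 1 SE and a dashed line of equal values. The points follow the line, and 207 have the same sign under both treatments.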

How the data were processed

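Small RNA was sequenced from 10 sera and 8 ulna bones of PTH-treated rats, and 18 placebo libraries (10 sera, 8 bones) were set beside them. The authors used cutadapt 3.3 for adapter trimming, discarded reads shorter than 17 nt, and aligned the rest through Bowtie and miRDeep2, allowing 2 mismatches against Rnor 6.0 and 1 against miRBase. The deposited counts are whole numbers of reads per mature miRNA, not normalized. From a deposited RPM column, relative to the whole library, only the library totals were taken here. A further RPM column, scaled to miRNA reads, was not used. Libraries were grouped by their labels, whose titles carry no shared replicate numbers across tissues.

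Fits used edgeR 4.0.16, DESeq2 1.42.0 and limma 3.58.1 under R 4.3.3: TMM scaling, filterByExpr over the 4 groups, quasi-likelihood fit (legacy = TRUE, robust = FALSE), genotype as a block, two-sided tests, Benjamini-Hochberg adjusted p under 0.05. The study's own threshold of 0.2 and its independent filtering were alternatives. Arm ratios were log2 with a pseudocount of 0.5. Single values were tested by exact permutation. Scripts were tested on simulated data. Replicates within groups differed by more than counting noise in all 32 pairs (lowest chi-squared over its degrees of freedom 14.5). Reported by name were, per direction, the 12 miRNAs of largest difference with at least 1000 CPM and no overlap, the 10 most abundant per tissue, up to 4 members of each list (all of lists of at most 6), up to 5 miRNAs of 1 tissue alone, up to 5 per interaction and up to 6 hairpins per direction. Others were chosen after their values were seen. Members and lists were chosen with earlier results of these data known. Alternatives were RLE factors, library totals, DESeq2, other filters and thresholds, no genotype term, each genotype alone, placebo libraries in the fit, other settings of the arm ratio, and each library left out. Leaving out WT bones 1 and 2, or WT serum 3 and ZDF serum 1, was added after the data were seen.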

Additional observations from a re-analysis of the deposited data

Results flagged for a closer look

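A sample far from the others of its group, by Dixon's ratio, was found in 22 of 188 groups of 4 or 5 libraries examined. For independent, normally distributed values chance gives about 1 in 20. These groups share libraries, and list sums include miRNAs also examined alone, so the 22 do not measure an excess over chance. In WT serum replicate 3, let-7a-5p was at 859 CPM, let-7c-5p at 1719, miR-1-3p at 276, miR-1b at 399 and miR-99a-5p at 6983 CPM, and the summed shares of let-7 and miR-98 (3.86%) and of miR-30 miRNAs (3.06%) were also the highest of their group. In ZDF serum replicate 1, miR-199a-5p was at 387 CPM, miR-206-3p at 107 CPM, mesenchymal and osteoblast miRNAs took 1.79% and smooth muscle miRNAs 9.28%. WT serum replicate 5 stood apart for cartilage miRNAs (4.38%) and miR-142-5p (9988 CPM), and ZDF serum replicate 3 for miR-486 (152709 CPM).

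Among bones, WT replicate 2 stood apart for miR-1-3p (11044 CPM), miR-1b (53859 CPM), miR-191a-5p (5692 CPM) and Dlk1-Dio3 miRNAs (0.214%). ZDF bone replicate 2 held 19302 CPM of miR-1-3p and 3498 CPM of miR-206-3p. ZDF bone replicate 1 was low for let-7 and miR-98 miRNAs (6.45%) and ZDF bone replicate 3 for miR-99a-5p (32325 CPM). In data outside the comparisons, bone libraries held up to 65 reads of the extraction controls that were added to the sera.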

How the results depend on the processing

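Of 215 miRNAs tested, 175 differed between serum and bone, and 165 to 183 differed when any 1 library was left out. RLE factors gave 176, DESeq2 179, library totals 167 and a threshold of 0.2 gave 192. The count moved by more than 1.5 times with no filter beyond 1 read (307 of 588), with the study's independent filtering at 0.2 (385 of 542) and with the filter in each tissue alone (102 of 137), all of which change how many miRNAs are tested. Calls higher in serum were 44.6% of all calls, 49.4% with RLE factors, 51.7% without ZDF serum replicate 1 (90 of 174) and 53.5% without WT bone replicate 3 (92 of 172). Alternative values of single miRNAs were counted for a part of the 215 only, so they do not describe all tested miRNAs. Of these values, 2801 kept direction and side of the threshold, 58 gained and 27 lost the call, and let-7i-5p turned to 0.28 in WT rats alone. Without ZDF serum replicate 1 or WT bone replicate 3, miR-146a-5p (0.99 and 0.88), miR-203a-3p (1.18 and 1.10) and miR-221-3p (1.05 and 1.15) also passed as higher in serum, as did miR-144-5p (-0.77) as higher in bone without ZDF serum replicate 3. Both interactions gave 0 calls, also with any 1 library left out, except under independent filtering at 0.2 (3 for genotype, 4 for treatment). Of the 22 hairpins, 13 differed in arm ratio, 12 to 14 with 1 library left out, 30 of 54 with a minimum of 5 reads and 7 of 9 with 100. A pseudocount of 5 turned miR-143 to 0.00553 and miR-99a to -1.50. The difference in the share of reads on miRNAs (-5.18 percentage points, -5.62 to -4.66 with 1 library left out) was -2.38 in WT rats alone (exact p = 0.151). The effective number of miRNAs differed by -3.91, and by -9.07 (exact permutation p = 0.0351) without WT bones 1 and 2. The causes of these moves were not tested. No paired analysis was possible because the labels share no replicate numbers between serum and bone.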
